A study of Mus musculus with 6 samples.

Results

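The 8 genes described here encode the main subunits of TRiC, also called CCT, the chaperonin of the mammalian cytosol. They were taken from the deposited expression table by symbol, as Tcp1, Cct2, Cct3, Cct4, Cct5, Cct6a, Cct7 and Cct8, and all 8 were among the 11452 genes of the table and the 11269 genes tested. The cells were 4T1, a line derived from a mammary tumour of the mouse. They were knockout (KO) or wild type (WT) for Myo1e, the gene of the motor protein myosin 1e, and each genotype gave 3 libraries, each labelled as a pool. The sources used here do not say how the knockout was made or how many clones a pool held. The libraries came from a stranded mRNA kit.

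TRiC is built from a pair of stacked rings, each with a different gene product at every position, and it closes over an unfolded protein when it hydrolyses ATP. It is known as the chaperonin that actins and tubulins need to fold. Prefoldin, a smaller chaperone, hands these chains over to it as they leave the ribosome. In yeast, the CCT2, CCT4 and CCT5 side of the ring binds ATP strongly, whereas CCT3, CCT6 and CCT8 bind it weakly.

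The table has the columns 1, 2 and 4 in each genotype. Libraries are called by genotype and column number, such as KO 4, and the labels do not say what the number 4 marks (the pools are numbered 1 to 3). KO 4 and WT 4 stand apart from the other 4 libraries across the whole table: 65.6% of the 11269 genes differed between the column numbers past the threshold, an adjusted p under 0.05 in limma. The libraries held 17772003 to 19988206 reads, recovered from the deposited values, and those of KO 4 (19560010) and WT 4 (17980487) lie within that range. The share of reads from genes of the mitochondrial genome was 0.343% in KO 4 and 0.309% in WT 4, against 0.379% to 0.493% in the libraries numbered 1 and 2. Of the epithelial markers 10 of 10 were measured. Their summed levels were 3893 to 4186 CPM (read counts scaled to a common library size) in the libraries numbered 4. In those numbered 1 and 2 they were 4610 to 5350 CPM. By genotype the sums were 3893 to 4636 CPM in KO and 4186 to 5350 CPM in WT. The sums do not overlap between the column numbers. In 37.0% of all tested genes both libraries numbered 4 lay below all others, and in 35.8% above. Single markers went both ways, with 5 higher and 4 lower past the threshold in the libraries numbered 4. Their median difference was 0.090. Of the leukocyte markers 1 of 8 was in the table, Cd68, with 4.51 to 5.34 CPM in the libraries numbered 4, against 3.98 to 7.88 CPM in the others. Of the fibroblast markers 1 of 8 was, Pdgfra, with 11.3 to 12.2 CPM in the libraries numbered 4, against 7.88 to 11.2 CPM in the others, and of the endothelial markers 0 of 5.

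Myo1e itself was at 6.87, 6.81 and 6.81 log2 CPM in KO 1, KO 2 and KO 4, against 7.09, 7.02 and 6.91 log2 CPM in WT 1, WT 2 and WT 4. The KO values were below all 3 WT values, but the difference of -0.18 did not pass the threshold in limma (adjusted p = 0.9999). That fit leaves the split by column number in its spread. With the column number as a replicate block, the 95% interval of the difference was -0.29 to -0.062 (SE 0.051). It again did not pass the threshold (limma adjusted p = 0.32). Reads summed over a gene cannot tell if its sequence or its protein was changed.

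The 8 genes lie on 8 different chromosomes (GRCm38, gene spans of GENCODE M21). Among the subunits of the strong ATP side, Cct2 lies on chromosome 10 (117051001 to 117063814, minus strand), Cct4 on chromosome 11 (22990519 to 23003780, plus strand) and Cct5 on chromosome 15 (31590800 to 31601804, minus strand). Cct3 lies on chromosome 3 (88297116 to 88321767, plus strand), Cct6a on chromosome 5 (129786998 to 129846371, plus strand) and Cct8 on chromosome 16 (87483326 to 87495873, minus strand). Tcp1, from which the name TRiC comes, lies on chromosome 17 (12915701 to 12925067, plus strand), and Cct7 on chromosome 6 (85451514 to 85468475, plus strand). Cct6b, the paralog of Cct6a that is best known from testis, is not in the table. Whether reads of the processed pseudogenes Tcp1-ps1 and Cct3-ps1, or of genes that overlap a subunit gene on the other strand, were kept apart was not stated by any source used here.

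Promoters are shown for the subunit whose level differed most between the column numbers and for the called subunit that differed least. Cct7 was added because its window, like that of Tcp1, holds the CCAAT box, the GC box and the ETS core. The promoters are RefSeq windows on GRCm38.p6, read on the gene's own strand. They run from 250 bases before to 50 bases after the outermost annotated start. RefSeq windows were found for 7 of the 8 genes, Cct4 being the other. Capitals mark every match, on either strand, to any of 7 motifs. The heat shock element was searched as the pairs GAANNTTC and also TTCNNGAA. The E-box was searched as CACGTG and the cyclic AMP response element as TGACGTCA. The GC box was searched as GGGCGG, the ETS core as CCGGAA and the remaining motif as CCAAT, and no capital letter in the 3 windows belongs to more than 1 motif.
Cct5 (chr15:31601797-31602096, minus strand): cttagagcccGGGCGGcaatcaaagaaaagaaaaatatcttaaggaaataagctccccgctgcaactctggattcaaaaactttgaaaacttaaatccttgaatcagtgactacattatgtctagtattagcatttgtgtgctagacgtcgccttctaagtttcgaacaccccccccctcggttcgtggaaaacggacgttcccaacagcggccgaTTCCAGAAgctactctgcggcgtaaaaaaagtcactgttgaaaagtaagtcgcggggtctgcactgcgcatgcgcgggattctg
Cct6a (chr5:129787106-129787405, plus strand): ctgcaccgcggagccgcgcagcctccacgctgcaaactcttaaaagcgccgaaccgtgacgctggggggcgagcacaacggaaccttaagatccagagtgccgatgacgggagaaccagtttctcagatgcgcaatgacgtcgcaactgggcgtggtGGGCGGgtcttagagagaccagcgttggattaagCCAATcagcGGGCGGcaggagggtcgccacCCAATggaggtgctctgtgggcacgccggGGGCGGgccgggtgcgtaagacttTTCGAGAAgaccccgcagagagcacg
Cct7 (chr6:85451255-85451554, plus strand): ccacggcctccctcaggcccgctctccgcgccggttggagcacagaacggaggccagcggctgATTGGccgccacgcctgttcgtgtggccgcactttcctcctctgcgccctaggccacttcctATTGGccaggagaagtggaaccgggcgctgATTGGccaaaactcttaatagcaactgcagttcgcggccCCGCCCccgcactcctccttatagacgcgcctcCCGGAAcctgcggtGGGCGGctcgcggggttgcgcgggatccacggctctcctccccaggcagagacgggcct

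A GC box was present in all 7 windows, against 35.6% of the 32817 promoter windows of 300 bases in the RefSeq table. CCAAT was found in 4 of the 7, those of Tcp1, Cct3, Cct6a and Cct7, against 37.4% of all windows. The ETS core was found in 4 of the 7, those of Tcp1, Cct2, Cct7 and Cct8, against 14.9%. The heat shock pair TTCNNGAA was found in those of Cct5 and Cct6a, against 8.51% of all windows, and GAANNTTC in 0 of 7, against 7.86%. The E-box and the cyclic AMP response element were found in 0 of 7, against 7.15% and 1.79%. Each subunit gave 1 window, whereas the shares count every distinct window, also several of 1 gene. They are not matched for expression or for G and C letters, which made up 47.3% (Cct5) to 67.7% (Cct7) of the subunit windows. These matches describe letters and not bound sites.

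Every subunit was abundant, above 97.9% to 99.2% of the genes in the table by mean level. Each was covered by 7440 to 22512 reads in a library. Together the 8 genes summed to 4819 CPM in KO 4 and 5210 CPM in WT 4, against 6692, 6801, 6632 and 7101 CPM in KO 1, KO 2, WT 1 and WT 2. That is 0.513% and 0.542% of the reads in the libraries numbered 4, against 0.650% to 0.690% in the others.

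Levels between subunits were compared per kilobase of the longest transcript that holds nearly the whole coding sequence. For Cct6a, which GENCODE M21 lists without a coding transcript, the longest transcript was used. On this scale the mean over the 6 libraries was highest for Cct5, at 9.02 log2 CPM per kilobase, and lowest for Cct7, at 7.71. The subunits thus spanned 1.31 on the log2 scale, a 2.48-fold range, with an SD of 0.44 between the 8 genes. The range was 2.47-fold to 2.59-fold within single libraries, so the unevenness was of like size in all 6.

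In the libraries numbered 1 and 2 the order of the levels was nearly fixed. Cct5 led with 9.22, 9.28, 9.18 and 9.35 log2 CPM per kilobase in KO 1, KO 2, WT 1 and WT 2. Cct2 came next with 9.06, 9.09, 9.04 and 9.19, lower than Cct5 in each of these 4 libraries although the ranges of both genes overlap slightly. Below them Cct3 (8.61 to 8.69), Tcp1 (8.54 to 8.63) and Cct6a (8.48 to 8.55) followed closely, with ranges that overlap from each gene to the next. Cct8 (8.14 to 8.19) and Cct4 (8.07 to 8.19) could not be ordered, since Cct4 was the lower in 3 libraries and the higher in WT 2. Cct7 was lowest in every library, with 7.88 to 7.98 in these 4.

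In KO 4 and WT 4 the order was different, and it was the same in both. Cct2 led, with 8.63 and 8.71 log2 CPM per kilobase, above Cct5 with 8.47 and 8.63. Cct4 ranked 3 of 8 with 8.17 and 8.32, where its rank was 6 or 7 in the other libraries. Cct7 was again the lowest, with 7.26 and 7.35. Cct6a ranked 4 in KO 4 and WT 4, above Cct3 and Tcp1, against rank 5 in the other libraries, below both. Among the remaining subunits Cct3 stayed above Tcp1, and Tcp1 above Cct8, as the plot of length-scaled levels shows.

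**Figure D1:**
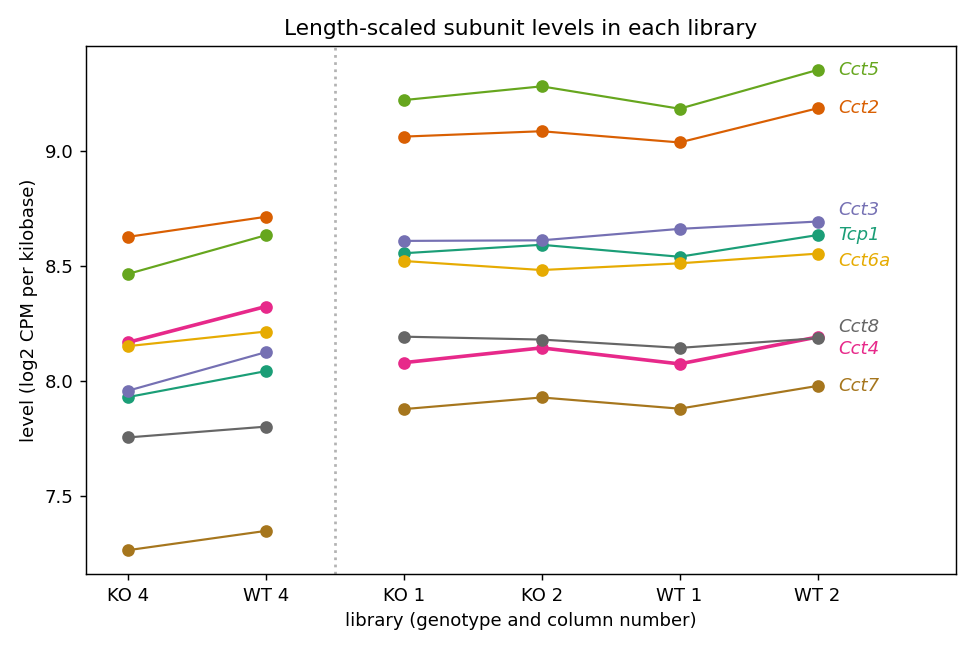
Length-scaled level (log2 CPM per kilobase of transcript) of each TRiC subunit in the 6 libraries, with KO 4 and WT 4 left of the dotted line and KO 1, KO 2, WT 1 and WT 2 right of it; lines only join the values of 1 gene. Cct4 (thick line) lies at 8.17 and 8.32 in KO 4 and WT 4 and at 8.07 to 8.19 in the others, while the other 7 are lower in the libraries numbered 4.

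Which length is used changes these distances. With the coding length, known for 7 of the 8 genes, the SD between subunits was 0.34, the range 1.93-fold, and Cct2 stood above Cct5. With the shortest such transcript in place of the longest, the range was 1.97-fold and Cct8 was lowest. By the mean of the 6 libraries, Cct4 stood below Tcp1 and Cct3 with the longest transcript. It stood between them with the coding length and above both with the shortest transcript. The ranks of Cct4 given above are thus those of the longest transcript. The fall of 7 subunits in the libraries numbered 4 does not rest on this choice, because a length cancels within a gene.

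Other complexes of several subunits give a scale for this. With the longest transcript, the SD between subunits was 0.27 for the 6 genes of the MCM2-7 helicase, which unwinds DNA for replication, and 0.39 for the 6 prefoldin genes. It was 0.70 for the 14 genes of the 20S proteasome core, 0.85 for the 7 genes of the actin-nucleating Arp2/3 complex and 1.24 for 9 genes of the COP9 signalosome, which include the alternative subunits Cops7a and Cops7b. With coding lengths the values were 0.34, 0.53, 0.57, 0.49 and 0.70 in the same order, beside 0.34 for TRiC. These are descriptions with no test. TRiC lies among the narrower of these complexes on both scales, with a higher mean level than the other 5, at 8.09 log2 CPM per kilobase in the libraries numbered 4 and 8.54 in those numbered 1 and 2.

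The subunits fell together in the libraries numbered 4, with 1 exception. Of the 8 genes 7 were lower past the threshold and Cct4 was not. The median difference over the 8 was -0.51 on the log2 scale, or 29.7% less, where the median of all tested genes was 0.0031. The fall was smaller after quantile normalization, with a median of -0.35 over the 8, against -0.010 over all tested genes. Over all genes 33.8% were lower and 31.8% higher in this contrast, so a fall is common in these libraries. Among the 229 other genes with a mean log2 CPM of at least 9, a level that 7 of the 8 subunits reach, 76.9% differed past the threshold, 55.5% lower and 21.4% higher, and the median difference was -0.25. The contrast sets 2 libraries numbered 4 against 4 numbered 1 or 2 in limma with genotype as a term, and its p-values measure only the spread between these libraries. In bulk samples a smaller share of cells that express a gene and less of its RNA per cell cannot be told apart.

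Among the subunits of the strong ATP side, Cct5 fell most. It is the subunit altered in a human inherited sensory neuropathy. Cct5 was at 9.35 and 9.52 log2 CPM in KO 4 and WT 4, against 10.11, 10.17, 10.07 and 10.24 in KO 1, KO 2, WT 1 and WT 2. The groups did not overlap, and the difference was -0.71 (SE 0.070, limma adjusted p = 2.3e-05), a level 0.611 times that of the other libraries. Cct2, which in human cells also acts as an autophagy receptor for protein aggregates, was at 9.60 and 9.68 log2 CPM in KO 4 and WT 4, against 10.03, 10.06, 10.01 and 10.16. Its fall was smaller, by 0.42 on the log2 scale (SE 0.063, adjusted p = 0.00029 in limma), again with no overlap.

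Cct4, the third gene of that side, did not fall. It was at 9.48 and 9.64 log2 CPM in KO 4 and WT 4, against 9.39, 9.46, 9.39 and 9.50 in KO 1, KO 2, WT 1 and WT 2. KO 4 lies between these values and WT 4 above all of them. The difference was 0.12 (SE 0.062), with a 95% interval of -0.017 to 0.26, and it did not pass the threshold (limma adjusted p = 0.11). After quantile normalization it was 0.28 and past the threshold (limma adjusted p = 0.0016), where 65.2% of all genes were called, 31.7% higher and 33.5% lower. Set against the mean log2 level of the other 7 subunits in the same library, Cct4 was at 0.32 and 0.37 in KO 4 and WT 4, against -0.32, -0.28, -0.32 and -0.29 in KO 1, KO 2, WT 1 and WT 2. Cct4 was singled out after its values were seen, so this is given with no test.

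The subunits that bind ATP weakly in yeast fell by unequal amounts. Cct3 was at 8.94 and 9.11 log2 CPM in KO 4 and WT 4, against 9.59, 9.59, 9.64 and 9.68 in KO 1, KO 2, WT 1 and WT 2, a difference of -0.60 (SE 0.054, limma adjusted p = 1.3e-05). Cct8, which promotes assembly of the complex in human stem cells, was at 9.01 and 9.06 log2 CPM in the libraries numbered 4 and between 9.40 and 9.45 in the others. Cct6a was at 9.45 and 9.51, against 9.78 to 9.85. These 2 fell less, by 0.40 and 0.33 on the log2 scale (SE 0.053 and 0.054, limma adjusted p = 0.00014 and 0.00051).

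Tcp1 and Cct7, the remaining subunits, fell about as much as Cct3. Tcp1 was at 9.22 and 9.33 log2 CPM in KO 4 and WT 4, against 9.85, 9.88, 9.83 and 9.92 in KO 1, KO 2, WT 1 and WT 2, a difference of -0.59 (SE 0.059, limma adjusted p = 2.4e-05). Cct7 was at 8.55 and 8.63, against 9.16, 9.22, 9.17 and 9.27, a difference of -0.61 (SE 0.055, limma adjusted p = 1.4e-05). In all 7 genes that fell, both libraries numbered 4 lay below all 4 others. That is so in 37.0% of all tested genes, and in 35.8% both lay above the others, as the plot of levels by library shows for the subunits.

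**Figure D2:**
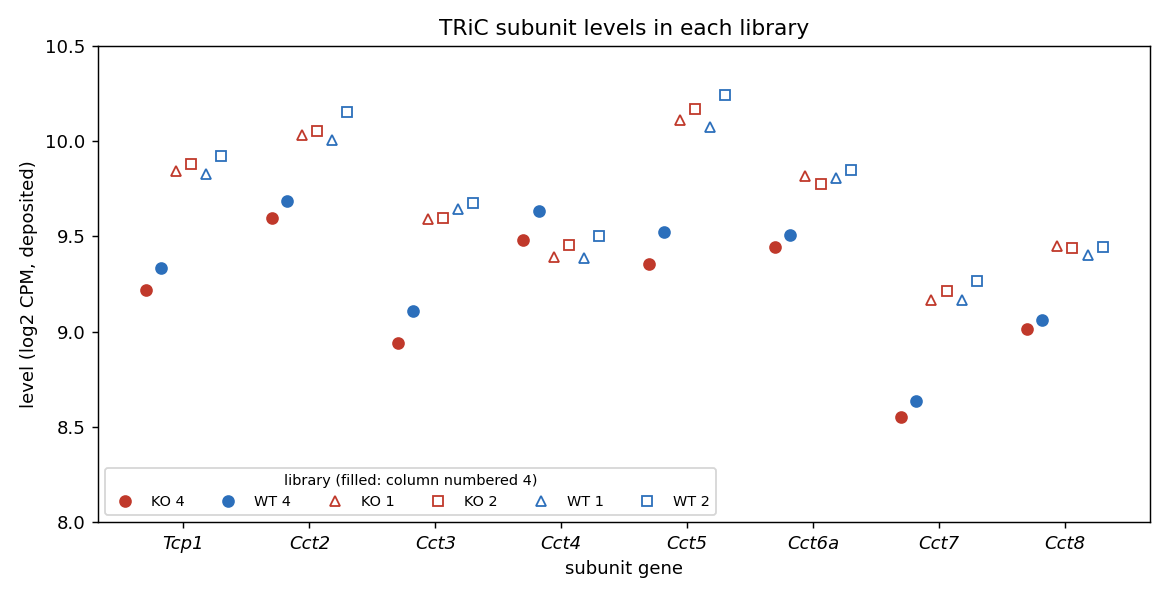
Deposited level (log2 CPM) of each TRiC subunit gene in each library, with KO in red and WT in blue, filled circles for the libraries numbered 4, and open triangles and squares for those numbered 1 and 2. In 7 genes the filled circles lie below all open symbols, and for Cct4 they lie at 9.48 and 9.64, within and above the range of 9.39 to 9.50.

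Both genotypes showed the split between the column numbers. Within KO the subunits ranged from -0.79 (Cct5) to 0.056 (Cct4), with a median of -0.54, and within WT from -0.63 (Cct5) to 0.19 (Cct4), with a median of -0.47. Each of the 8 was lower within KO than within WT, by at most 0.15. The test of that difference is the one of KO minus WT by column number given below.

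**Figure D3:**
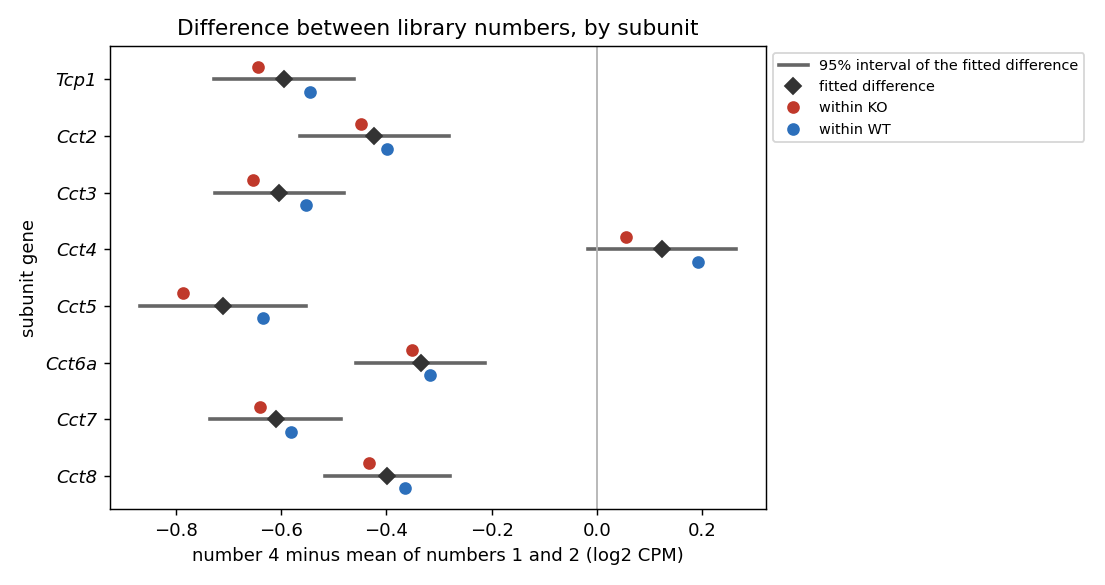
Difference in log2 CPM between the library numbered 4 and the mean of the libraries numbered 1 and 2, within KO (red) and within WT (blue), with the fitted difference over both genotypes (diamond) and its 95% interval (bar). Cct5 lies lowest, at -0.71, and the interval of Cct4 alone, -0.017 to 0.26, includes 0.

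Several other measures moved with the column number in these libraries, beside the mitochondrial share given above. Over all tested genes 33.8% were lower and 31.8% higher past the threshold in the libraries numbered 4. The 6 genes of the MCM2-7 helicase were all lower past the threshold, with a median difference of -1.31. Krt8, a keratin of simple epithelia, differed by -1.27 and Esrp1, an epithelial splicing factor, by 1.34, and of the 10 epithelial markers 5 were higher and 4 lower past the threshold. The summed level of the 10 was lower in the libraries numbered 4, as given above, but their median difference was 0.090. A sum weighs abundant genes most. Krt8 and Krt7 averaged 8.99 and 9.38 log2 CPM in the libraries numbered 4, against 10.26 and 10.08 in the others. Those higher were Epcam, Cdh1, Cldn3, Cldn4 and Esrp1. Pdgfra, the only fibroblast marker in the table, was higher by 0.38 (limma adjusted p = 0.039), a call lost after quantile normalization. The part of these in the result for the subunits was not tested. With each library's trend over length removed, the 7 subunits that fell differed by -0.69 to -0.32 and were again past the threshold in limma. Genes that overlap a subunit gene on the opposite strand did not move alike. Mrpl18, which overlaps Tcp1 by 645 bases, differed by -1.57, and Psph, which overlaps Cct6a by 452 bases, by 0.90. Pradc1, which overlaps Cct7 by 457 bases, differed by -0.60, and Usp16, which overlaps Cct8 by 192 bases, by 0.0035. The part of such reads in the subunit values was not tested.

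Genes of proteins that work with TRiC are set here against the 33.8% of all genes that were lower and the 31.8% that were higher. Of the 6 prefoldin genes 4 were lower and 0 higher in the libraries numbered 4, with a median of -0.45. Pfdn6 was at 4.37 and 4.55 log2 CPM in KO 4 and WT 4 and at 5.59 to 5.70 in the others (difference -1.19, SE 0.066, limma adjusted p = 8.5e-07). Pfdn2 differed by -0.69, while Pfdn1 (-0.17) and Pfdn5 (-0.14) did not pass the threshold. Of 5 further cofactors 1 was lower, Pdcl3, a phosducin-like protein that assists folding on TRiC (-0.26). In the same list 2 were higher, Uri1 and Pdrg1, both of the prefoldin-like complex (0.84 and 0.27), and the call of Pdrg1 was lost after median centring and after quantile normalization. Of 6 genes that assemble tubulin after TRiC has folded it, 3 were lower, Tbca, Tbcb and Tbcc (-0.57, -0.82 and -0.72), and 2 were higher, Tbce and Arl2 (0.34 and 0.18), of which Arl2 lost its call under both of those scalings. The counts of these last 2 lists are near the shares over all genes.

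Most genes of the best known clients fell. Of 18 measured actin, actin-related and tubulin genes 14 were lower and 2 higher, with a median of -1.22. The shares over all genes were 33.8% lower and 31.8% higher. Of the 229 genes outside the family with a mean log2 CPM of at least 9, Actb, Actg1 and Tubb5 included, 55.5% were lower and 21.4% higher. Actb, which encodes beta-actin, was at 10.69 and 10.83 log2 CPM in KO 4 and WT 4 and at 12.26 to 12.36 in the others, a difference of -1.55 (SE 0.078, limma adjusted p = 5.4e-07). Actg1, the gene of gamma-actin, differed by -1.91. Among the tubulins Tubb6 differed by -2.04, Tuba1b by -1.72, Tubb4b by -1.59 and Tubb5 by -1.26. The 2 that were higher were Tubg2 and Tubb4a (0.79 and 0.88), both weakly expressed. After quantile normalization 15 were lower and 2 higher, against 33.5% and 31.7% of all genes, and Tubb4a lost its call. Tubulin and actin genes hold close paralogs whose reads the counting may have split. Whether the fall of these genes differs from that of the subunits was not tested.

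Of 20 other proteins known to be folded by TRiC or to bind it, 13 were lower and 4 higher, with a median of -0.27. Over all genes 33.8% were lower and 31.8% higher. Ccne1, which encodes cyclin E1, differed by -2.40, and the mitotic genes Plk1 and Cdc20 by -0.66 and -0.51. Those higher were Bbs2 (1.04), Vhl (0.52), Ppp2r2a (0.33) and Rptor (0.22). After quantile normalization 11 were lower and 5 higher, against 33.5% lower and 31.7% higher over all genes.

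Most other chaperones of the cytosol fell too. Of 17 tested genes 15 were lower and 0 higher, with a median of -0.68, against 33.8% lower and 31.8% higher over all genes. After quantile normalization 14 were lower and 1 higher, against 33.5% and 31.7% of all genes. Hsph1, an Hsp110 nucleotide exchange factor, was at 6.73 and 6.68 log2 CPM in KO 4 and WT 4 and at 8.04 to 8.16 in the others (difference -1.37, SE 0.051, limma adjusted p = 1.4e-07). The Hsp90 cochaperones Ahsa1 and Stip1 differed by -1.05 and -0.95. In mitochondria, where the chaperonin is a different one built from Hspd1 with its lid Hspe1, 3 of 8 genes were lower and 3 higher, near the 33.8% and 31.8% over all genes. Those lower were Hspd1 (-0.58), Hspe1 (-0.72) and Grpel1 (-0.63), and the protease Lonp1, the cochaperone Dnaja3 and Hspa9 were higher by 1.07, 1.04 and 0.42. Among the complexes set beside TRiC for evenness, 13 of 14 genes of the 20S core, 7 of 9 of the COP9 signalosome and 5 of 7 of Arp2/3 were lower and 0 higher, with medians of -0.60, -0.34 and -0.51. After quantile normalization these counts were 13, 5 and 5 lower, with 1 gene of Arp2/3 higher.

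**Figure D4:**
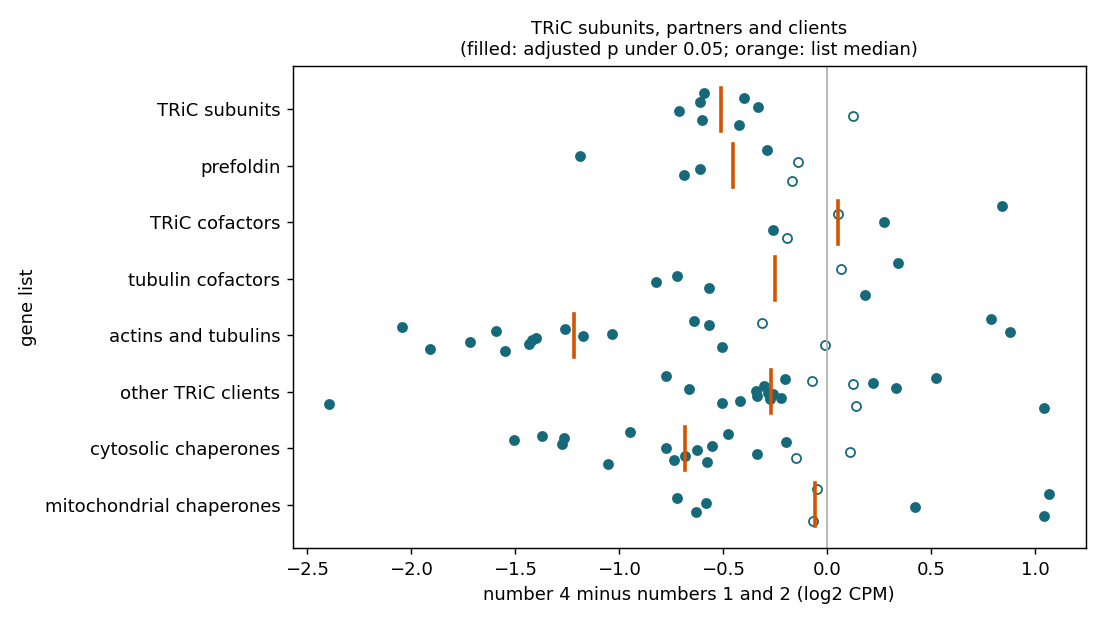
Libraries numbered 4 minus the other libraries (log2 CPM, horizontal axis) for each tested gene of the TRiC subunits and of 7 further lists, 1 to a line. Filled points passed the threshold of 0.05 on the adjusted p, and the orange line is the list median, -0.51 for TRiC and -1.22 for actins and tubulins.

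The genes outside the family with the profile closest to the subunits' mean were found from the root mean square distance between centred log2 profiles over the 6 libraries. Prps1, a phosphoribosyl pyrophosphate synthetase, was closest at 0.013, with 6.37 and 6.44 log2 CPM in KO 4 and WT 4 and 6.81 to 6.90 in the others. Psmb7, a subunit of the 20S proteasome core, followed at 0.015, Ndufs3, a subunit of respiratory complex I, at 0.018, and Triobp, an actin-binding protein, and Actr8, an actin-related protein of a chromatin remodeller, at 0.019 each. The mean is taken over all 8 subunits, Cct4 included, and most subunits lay farther from it than many other genes. Cct2 was closest, at 0.021, with 6 genes outside the family closer, then Cct8 at 0.038 with 67 and Cct6a at 0.058 with 275. Tcp1 lay at 0.071 with 487 genes closer, Cct7 at 0.079 with 665, Cct3 at 0.081 with 692 and Cct5 at 0.13 with 1901. Cct4 was farthest, at 0.27, with 5430 genes closer.

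No subunit was told apart between KO and WT. Of the 8 genes 0 passed the threshold, where 0.0% of all tested genes did, and 0 of the 8 had an unadjusted p under 0.05, against 23 genes (0.204%) in the whole table in limma and 29 with limma voom on the recovered reads. The mean difference was negative for all 8, from -0.10 for Cct3 to -0.0014 for Cct8, with the sign of Cct8 positive after median centring (0.0038), quantile normalization (0.037), removal of the length trend (0.024) and in the libraries numbered 1 and 2 only (0.021). The median over the 8 was -0.050, against -0.0071 over all tested genes. Levels averaged 9.38 ± 0.38 log2 CPM in KO and 9.48 ± 0.32 in WT for Cct3, and 9.88 ± 0.45 in KO and 9.95 ± 0.38 in WT for Cct5 (SD, n = 3), a spread that comes from the libraries numbered 4. For Cct4, which lacks that split, they averaged 9.44 ± 0.046 in KO and 9.51 ± 0.12 in WT (SD, n = 3).

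Within column numbers the differences were small and not of 1 sign. KO 1 was above WT 1 in 6 of the 8 genes, with differences from -0.052 (Cct3) to 0.049 (Cct8) and a median of 0.013. KO 2 was below WT 2 in all 8, from -0.10 (Cct2) to -0.0060 (Cct8), with a median of -0.061. KO 4 was below WT 4 in all 8, from -0.17 (Cct5 and Cct3) to -0.047 (Cct8), with a median of -0.10. Over all tested genes 50.1%, 50.3% and 53.3% were lower in KO in the pairs numbered 1, 2 and 4. Lower in all 3 pairs were Cct3, by -0.052, -0.082 and -0.17, and Cct7, by -0.0020, -0.050 and -0.084, that is 2 of 8 genes, against 17.0% of all genes. Between libraries of 1 genotype, all 8 genes were lower in WT 1 than in WT 2, with a median difference of -0.097, about as large as the largest median difference between the genotypes. KO 1 was lower than KO 2 in 6 of the 8, with a smaller median difference of -0.030.

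**Figure D5:**
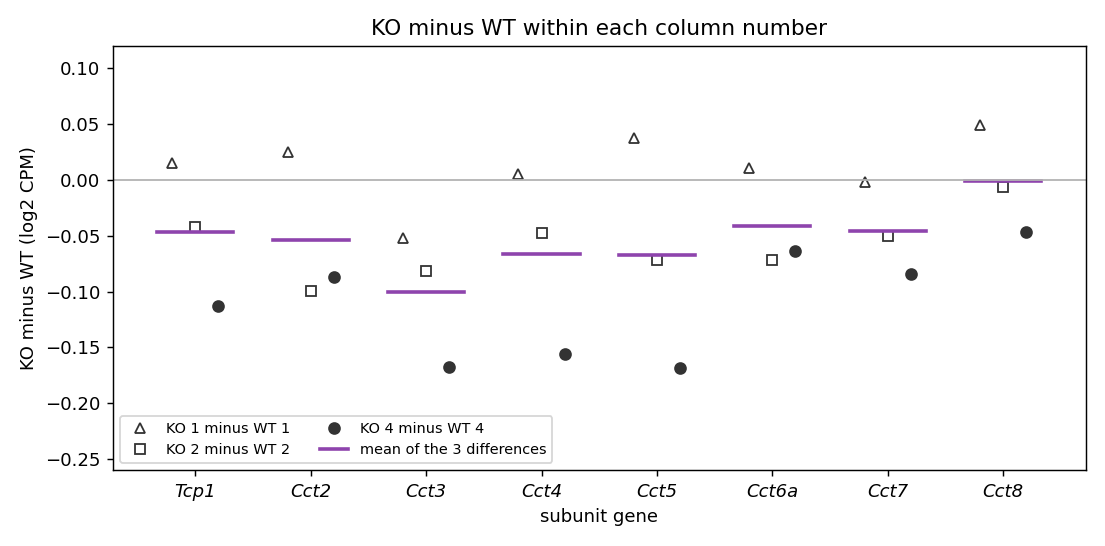
KO minus WT difference (log2 CPM) of each TRiC subunit within the column numbers 1 (triangles), 2 (squares) and 4 (filled circles), with the mean of the 3 as a purple bar. The filled circles lie between -0.17 and -0.047 in all 8 genes, and 6 of the 8 triangles lie above 0.

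With the column number as a replicate block, which removes the split by number, 0 of the 8 passed the threshold, with adjusted p between 0.55 (Cct3) and 0.995 (Cct8) in limma and 0.00887% of all genes called. At an unadjusted p under 0.05 it gave 0 of the 8, against 9.91% of all genes. The SE of a subunit was then 0.048 to 0.058, against 0.11 to 0.29 without the block. The 95% intervals of the 8 lay between -0.22 and 0.11, so differences of that size are not excluded. In the libraries numbered 1 and 2 only, the differences were -0.067 to 0.021, and the lowest adjusted p was 0.90 in limma.

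Whether KO minus WT itself differed between the column numbers was tested as an interaction in limma. Each genotype has 1 library numbered 4, so the spread comes from the libraries numbered 1 and 2 alone and KO 4 and WT 4 are assumed to vary like them. KO minus WT in the pair numbered 4, less its mean over the other pairs, ran from -0.15 (Cct5) to -0.033 (Cct6a) and was negative in 8 of 8 genes. It was also negative in 14 of 14 genes of the 20S core and 6 of 6 of prefoldin. The same held for 8 of 9 genes of the COP9 signalosome, 14 of 17 cytosolic and 7 of 8 mitochondrial chaperones. Of MCM2-7 it was negative in 1 of 6, and of actins and tubulins in 9 of 18. The sign was thus not particular to the 8 subunits. The median over the 8 was -0.084, against -0.010 over all tested genes. None of the 8 passed the threshold (adjusted p 0.997 to 0.998), where 0.0% of all genes did, and 0 of the 8 had an unadjusted p under 0.05, against 3.9% of all genes. The 95% intervals lay between -0.47 and 0.25, and after quantile normalization the values of Cct2 and Cct6a were positive.

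Between KO and WT, 0 genes of the partner and client lists were past the threshold in limma, with or without the block. The median difference was -0.065 for prefoldin, -0.038 for the TRiC cofactors, -0.091 for the tubulin cofactors and -0.046 for actins and tubulins. It was -0.016 for the other clients, -0.025 for the cytosolic and -0.028 for the mitochondrial chaperones. Of the actins, Actb differed by -0.062 and Actg1 by -0.045 between KO and WT.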

How the data were processed

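Tools named in the submitters' processing notes are STAR 2.7.3a, Trimmomatic 0.39, edgeR and featureCounts, with Subread 1.6.4 and build GRCm38; no source used here states the strand setting or the annotation release. The deposited values are log2 CPM, with a prior of about 1.0 read as read from the values. All values gave whole reads within a tolerance of 0.01, and counting error alone is small beside the falls called in the libraries numbered 4. The columns numbered 1 and 2 were matched to pools of that number, and those numbered 4 to their genotype.

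Genes were tested where 3 or more of the 6 libraries reached a log2 CPM of 0. Fits used limma 3.58.1 (R 4.3.3, trended variance, two-sided, Benjamini-Hochberg over all genes tested, threshold 0.05). KO against WT had no covariate, and the contrast of column numbers had genotype as a term. An exact permutation test of 3 against 3 cannot reach 0.05. The labels call the libraries pools and do not say that these were separate cultures, so p-values measure the spread between these samples.

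The column numbers were taken to pair the libraries, since same-numbered deviations from the genotype means correlated across genes at 0.744, 0.784 and 0.921. Number 1 also correlated with number 2 across genotypes (0.687 and 0.617), so the data separate numbers 1 and 2 only weakly. The members, the lists of partners, clients and markers, and the promoter motifs were chosen with earlier results of these data known. Besides all subunits, Myo1e and 4 abundant client genes, the rule named up to 3 members of a list by p in the contrast of numbers, up to 2 by p in KO against WT, and the 5 closest profiles; other list members were chosen after their values were seen. Alternatives were other filters, pseudocounts, scalings and variances, voom, a length correction, the replicate block and leaving out each library. Levels per length used GENCODE M21 transcripts whose coding sequence is at least 90% of the gene's longest, and 95% intervals used scipy 1.17.1. Fits were tested on simulated data. These lacked the split by column number across the table, so they do not show what KO against WT could detect here.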

Additional observations from a re-analysis of the deposited data

How the results depend on the processing

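In the contrast of column numbers the same 7 subunits were lower past the threshold under all 19 alternatives, from -0.79 to -0.18, and 5592 to 7610 genes were called in all. Quantile normalization added 1 higher subunit, Cct4 at 0.28. For KO against WT no subunit passed under any alternative. The count over all genes was 1, in place of 0, with the replicate block, alone or with median centring or the length trend removed, and that gene is not a subunit; the block changed no other call. Cct8 turned positive with median centring (0.0038, with or without the block), quantile normalization (0.037), the length trend removed (0.024, with or without the block) and libraries 1 and 2 only (0.021).

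With 1 library left out, which leaves the numbers unequal between genotypes, KO minus WT ranged from -0.23 to 0.17 for Tcp1, -0.19 to 0.095 for Cct2, -0.28 to 0.12 for Cct3, -0.13 to -0.0023 for Cct4, -0.28 to 0.19 for Cct5, -0.15 to 0.075 for Cct6a, -0.24 to 0.17 for Cct7 and -0.12 to 0.14 for Cct8. The interaction called 0 to 269 genes, the most without WT 2 and 145 without WT 1, and 0 subunits; without KO 4 or WT 4 it could not be fitted. Its value for Cct2 ranged from -0.12 to 0.024, and quantile normalization gave 0.024 for Cct2 and 0.035 for Cct6a. The SD between subunits was 0.31 with no length, 0.34 with coding length and 0.34 with the shortest transcript, and 0.43 to 0.45 with 1 library left out. The cause of these changes was not tested. The alternatives that join the block with another choice were added after seeing the data. Every subunit had 7440 reads or more in a library, so counting error is small beside the falls called in the libraries numbered 4. The smallest KO minus WT differences may lie within it, such as -0.0020 for Cct7 in the pair numbered 1. That was not tested.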

Other observations

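Relatives and regulators of the chaperonin were also read. Of the chaperonin-like BBS genes, which act on cilium proteins, Bbs12 was at 3.54 and 3.30 log2 CPM in KO 4 and WT 4 and at 4.40 to 4.59 in the other libraries, a difference of -1.09 (SE 0.10, limma adjusted p = 1.8e-05). Mkks (0.21) and Bbs10 (-0.26) did not pass the threshold, though after quantile normalization 2 of the 3 genes were lower, against 33.5% of all genes. Hsf1, the main transcription factor of the heat shock response, was at 5.75 and 5.57 log2 CPM in KO 4 and WT 4 and at 5.93 to 6.17 in the others, a difference of -0.37 (SE 0.065, limma adjusted p = 0.00079). Hsf2 was higher by 0.23 (limma adjusted p = 0.028), a call lost after quantile normalization. Unc45a, the chaperone that folds myosin heads, differed by -0.077 between the column numbers (limma adjusted p = 0.44) and by -0.016 between KO and WT (adjusted p = 0.9999).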
